A study of Mus musculus with 2 samples.

Results

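The Reln and St18 GABA neurons were nuclei of the ventrolateral periaqueductal gray (vlPAG), a midbrain region, that carried RNA of the GABA genes together with Reln and St18. Members were chosen by unique molecular identifiers (UMIs), each UMI standing for 1 captured RNA molecule. A member had over 500 UMIs and under 20% of them from mitochondrial genes. Its Gad1, Gad2 and Slc32a1 UMIs summed to at least 1 and exceeded those of the vesicular glutamate transporters Slc17a6, Slc17a7 and Slc17a8. It further had at least 3 Reln UMIs, at least 1 St18 UMI and at least 3 UMIs of St18 and Arpp21 together, with Nr4a2, Six3 and the myelin genes Mog and Mobp at 0. The rule took 90 nuclei of the HFD library and 59 of the NFD library, 149 of 13822 nuclei in all. Every other nucleus with the same GABA condition and no Mog or Mobp UMI was an "other GABAergic nucleus", 2175 in HFD and 2563 in NFD. Because the members were picked by their own RNA counts, levels of the rule's genes are given as a description, and so is every difference between members and other GABAergic nuclei.

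The study asked how the vlPAG differs in diet-induced obese (DIO) mice. The libraries came from wild-type C57/BL6J mice, males by the study's methods, that were 8 weeks old when the diets started and ate a high-fat diet (HFD) or normal chow (NFD) for 7 weeks. Tissue of 18 mice was pooled for each diet, nuclei were captured in droplets and 1 library was sequenced per diet. There is therefore no replicate, and a difference between HFD and NFD cannot be told apart from a difference between pools, dissections or libraries. No p-value was computed from nuclei. Levels are summed UMIs as CPM, the UMIs of a gene scaled to the same total in each group of nuclei, and all intervals, given at 95%, cover counting error only.

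GABAergic neurons make GABA with the glutamate decarboxylases encoded by Gad1 and Gad2 and load it into vesicles with the transporter encoded by Slc32a1. In the periaqueductal gray they are known as local and projecting inhibitory cells in circuits of pain, defence and feeding. Reln encodes reelin, a secreted glycoprotein that binds the receptors Vldlr and Lrp8 and acts through the adaptor Dab1. It guides the placement of neurons during development and is made by subsets of inhibitory neurons in the adult brain. St18 encodes a zinc-finger transcription factor of the Myt family.

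The libraries differed in depth. HFD nuclei had a median of 7347.5 UMIs and NFD nuclei 4504.5, and the members stood above both, with a median of 12122.5 UMIs (2224 to 47747) in HFD and 7431 (2705 to 29489) in NFD. Other GABAergic nuclei had medians of 8938 and 5283 UMIs. The members summed to 1279847 UMIs in HFD and 500934 in NFD. Of the members, 16 in HFD and 9 in NFD exceeded the 95th percentile of UMIs of their library. The libraries shared 13 barcodes, none of them a member in both. Markers of cerebellar granule neurons (Gabra6, Fat2, Etv1, Il16 and Cbln3) summed to 132 UMIs in HFD members, with all 5 detected, and to 1 UMI in NFD members, where all but Il16 were at 0. The main differences between the diets are therefore also given without the nuclei that carried them.

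Of the 6 genes that name the neurons, 5 were enriched in the members and Sox6 was not. Reln (GRCm38, chr5:21884454-22344702, minus strand) had from 3 to 40 UMIs per nucleus with a median of 7 in HFD, and from 3 to 25 with a median of 6 in NFD. Its level was 650 CPM (607 to 696) in HFD and 898 CPM (817 to 985) in NFD, against 57.7 and 47.2 CPM in other GABAergic nuclei. St18 (chr1:6487231-6860940, plus strand) had a median of 3 UMIs per nucleus in both libraries, with highest values of 25 in HFD and 23 in NFD, and summed to 302 and 443 CPM. Arpp21 (chr9:112065091-112235938, minus strand), which encodes a cAMP-regulated phosphoprotein, had a median of 11.5 UMIs (0 to 40) in HFD and 10 (1 to 25) in NFD. Arpp21 was found in 87 of 90 HFD members and in all 59 NFD members. The rule could be met without it only by nuclei with at least 3 St18 UMIs, so in members with fewer its presence was set by the rule.

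Galnt14 and Pbx3 were not used by the rule. Galnt14 (chr17:73493228-73710453, minus strand), which encodes an enzyme that starts mucin-type O-glycosylation, had 297 CPM in HFD members and 38.1 in other GABAergic nuclei, a log2 ratio of 2.96 (2.78 to 3.14). In NFD it had 389 CPM in members and 42.1 in other GABAergic nuclei, a log2 ratio of 3.21 (2.97 to 3.44). It was detected in 66 of 90 HFD members (73.3%) and in 54 of 59 NFD members (91.5%). In cells that should lack it, the share with a UMI was 4.38% and 3.16% of microglia in HFD and NFD, at median depths of 1505 and 973 UMIs. Pbx3 (chr2:34171457-34373142, minus strand), which encodes a homeodomain transcription factor, had 730 CPM in HFD and 783 CPM in NFD members, 1.87 and 1.80 above other GABAergic nuclei on the log2 scale.

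Sox6 (chr7:115470872-116038796, minus strand), which encodes a transcription factor of the SoxD group, ran against the label. It had 20 UMIs in 7 HFD members, 15.6 CPM (9.55 to 24.1), and no UMI in the 59 NFD members, which allows up to 5.99 CPM. Other GABAergic nuclei had 32.5 CPM in HFD and 35.1 CPM in NFD. The log2 ratio in HFD was -1.06 (-1.77 to -0.42). Of the 20 Sox6 UMIs in HFD members, 17 lay in the 14 nuclei with at least 2 granule marker UMIs. Its relative Sox5, in contrast, was 1.57 higher than in other GABAergic nuclei in HFD and 2.16 higher in NFD on the log2 scale.

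**Figure D1:**
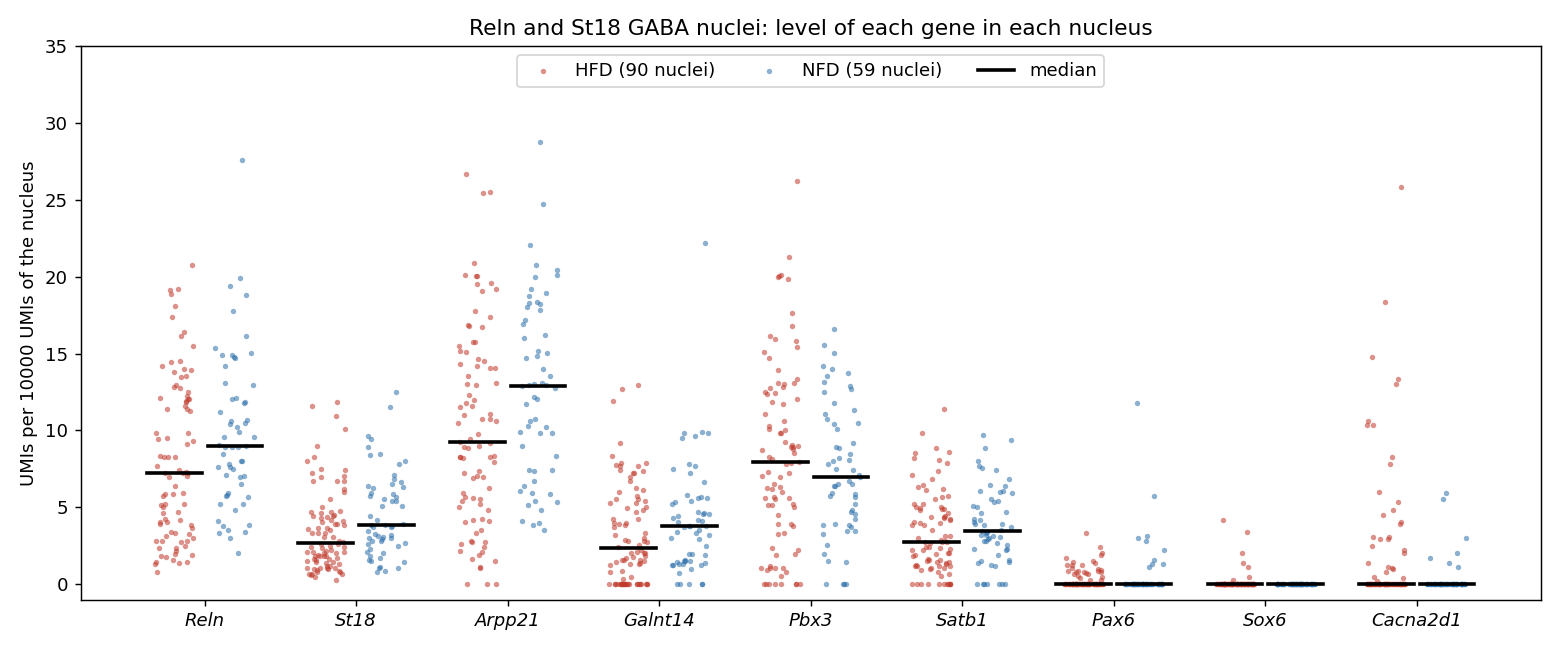
Level of 9 genes in each Reln and St18 GABA nucleus, as UMIs of the gene per 10000 UMIs of the nucleus. Each point is a nucleus (HFD, 90; NFD, 59) and each black line is the median. Medians of Reln were 7.22 in HFD and 9.02 in NFD, those of Pax6, Sox6 and Cacna2d1 were 0 in both, and the highest Cacna2d1 value was 25.8 in HFD and 5.94 in NFD.

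The nuclei varied around these sums. Per 10000 UMIs, the median of Arpp21 was 9.23 in HFD and 12.9 in NFD, that of Galnt14 was 2.33 and 3.76, and that of Pbx3 was 7.92 and 6.95. Satb1, not part of the rule, had medians of 2.74 and 3.46. The plot of levels by nucleus shows that the HFD and NFD ranges overlapped for each of these genes, and that 24 HFD and 5 NFD members had no Galnt14 UMI.

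The members made up 3.97% (3.21 to 4.86) of 2265 GABAergic nuclei in HFD and 2.25% (1.72 to 2.89) of 2622 in NFD. The rule counts UMIs, so this share moved with depth. Within nuclei of under 5000 UMIs it was 2.61% in HFD and 0.823% in NFD, from 5000 to under 10000 UMIs 2.61% and 3.38%, from 10000 to under 20000 UMIs 4.88% and 3.58%, and from 20000 UMIs up 9.89% and 5.56%. When every nucleus of at least 5000 UMIs was thinned to 5000 and the rule applied again, 34 of 1721 nuclei (1.98%, 1.37 to 2.75) passed in HFD and 32 of 1304 (2.45%, 1.68 to 3.45) in NFD, and the order of the diets turned. Without thinning, nuclei of at least 5000 UMIs gave 4.22% in HFD and 3.48% in NFD. The intervals of the diets overlapped in both. The share was thus higher in HFD in 3 of the 4 depth classes and over all nuclei, and lower in the other class and after thinning.

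**Figure D2:**
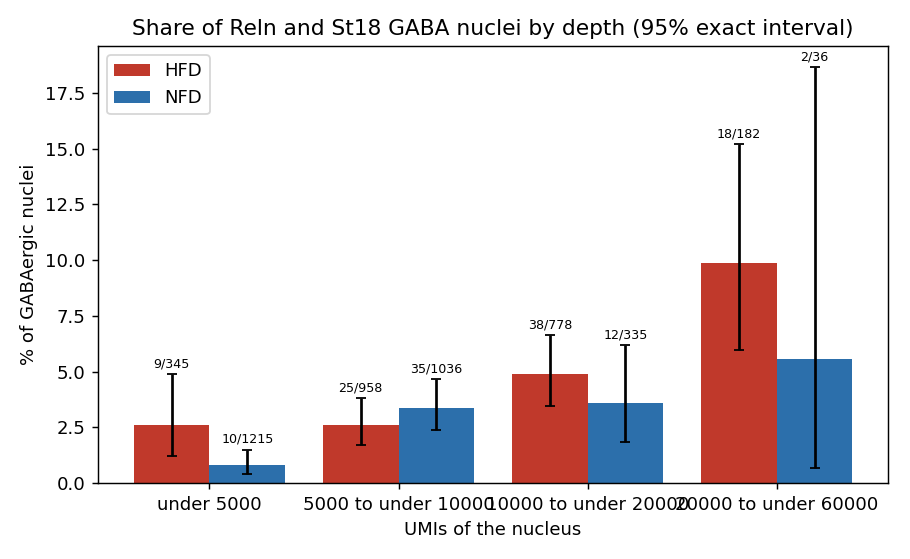
Share of GABAergic nuclei that met the rule, by the nucleus's own number of UMIs, with HFD left of NFD in each pair. Bars are shares in percent, error lines are exact binomial 95% intervals and the numbers above are members over GABAergic nuclei. HFD stood above NFD in the shallowest class (2.61% and 0.823%) and below it from 5000 to under 10000 UMIs (2.61% and 3.38%).

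Nuclei that failed a single condition of the rule show what its thresholds cut. In HFD, 24 nuclei had 1 or 2 Reln UMIs, 26 had no St18, 12 had too few UMIs of St18 and Arpp21, 16 carried Nr4a2, 3 carried Six3 and 2 carried Mog or Mobp. The NFD counts were 33, 13, 7, 1, 0 and 2. Galnt14 stood at 62.6 CPM in HFD and 92.6 CPM in NFD nuclei with 1 or 2 Reln UMIs, and at 109 and 139 CPM in those without St18. Each value lay below the members and above the other GABAergic nuclei as a whole. The 16 HFD nuclei set aside for Nr4a2, which encodes an orphan nuclear receptor, had Galnt14 at 139 CPM, Satb1 at 175 CPM and Pbx3 at 311 CPM. These too lay between the HFD members and the other GABAergic nuclei. Except for those with Mog or Mobp, the nuclei that failed a single condition count among the other GABAergic nuclei.

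Set against other GABAergic nuclei, the members differed in few genes. Of 5671 genes measured, 59 (1.04%) were past 2-fold higher and 67 (1.18%) past 2-fold lower in both libraries, each counting interval lying wholly past a 25% excess of the higher side, and the median log2 ratio over all of them was -0.02 in HFD and -0.04 in NFD. The genes of GABA synthesis and release were level with the other GABAergic nuclei. Gad1 had 105 CPM in HFD and 110 in NFD members, with log2 ratios of 0.01 and 0.06. Gad2 had 304 and 353 CPM, with ratios of -0.13 and 0.01. None of the 8 genes of GABA synthesis, release and uptake measured here was past the fold.

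Transcription factors were among the genes that stood highest. Pax6 (chr2:105668900-105697364, plus strand), a paired-box factor of neural development, had the largest ratio, with 34.4 CPM in HFD members against 1.96 in other GABAergic nuclei, and 37.9 CPM in NFD members against 1.17. Its log2 ratios were 4.13 (3.5 to 4.76) in HFD and 5.02 (4.02 to 6.02) in NFD. It was nonetheless seen in a minority, 28 HFD (31.1%) and 10 NFD members (16.9%), beside 1.75% and 0.546% of other GABAergic nuclei. Thinned to 5000 UMIs, Pax6 was found in 16.0% of 81 HFD members and 14.3% of 49 NFD members. Microglia, at their lower depth, had a Pax6 UMI in 0% and 0.526%. Satb1 (chr17:51736187-51833290, minus strand), a chromatin organizer, had 294 CPM in HFD members against 63.6, and 369 CPM in NFD members against 53.0. Of 33 lineage transcription factors measured here, a list that does not hold Pax6, 5 were higher in the members (Prox1, Pbx3, Nfib, Lmo3 and Satb1) and 5 lower (Pax8, Zfhx4, Pax5, Foxp2 and Zfhx3). Among all 5671 genes the shares were 1.04% and 1.18%. Of 6 Sox and Myt factors, St18 and Sox5 were higher and Sox6 lower.

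Lama2 (chr10:26980036-27619758, minus strand), a laminin chain, had 114 CPM in HFD members against 11.7 in other GABAergic nuclei, and 122 CPM in NFD members against 12.8. Megf11 (chr9:64385626-64709205, plus strand), a transmembrane protein with EGF-like repeats, had 295 CPM in HFD members against 37.7, and 234 CPM in NFD members against 40.4. C1ql3, a secreted C1q-like synaptic protein, was 2.75 higher in HFD and 4.10 higher in NFD on the log2 scale, from 36 and 27 UMIs. Cbln4, a cerebellin that binds neurexins, was 1.68 and 2.59 higher. The receptor tyrosine kinase gene Kit was 1.40 and 2.05 higher. Kcnip4, which encodes an accessory protein of Kv4 potassium channels, had 9589 CPM in HFD members against 3382 in other GABAergic nuclei, with log2 ratios of 1.5 in HFD and 1.65 in NFD. Of 58 synaptic adhesion genes, Cbln4 and Sema3a were higher and Il1rapl2, Cdh13, Cdh6 and Cdh9 lower. Of 32 potassium channel genes, Kcnh1 and Kcnip4 were higher and none lower. Of 26 O-glycan and heparan sulfate enzymes, Galnt14 and Galnt18 were higher and Ndst3 lower.

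The other genes among the 15 highest were Phldb2, with log2 ratios of 2.68 in HFD and 2.55 in NFD, and the poorly annotated Gm31592 (4.08 and 4.47), Gm26862 (2.75 and 3.13), Gm5535 (2.73 and 3.45), Sox1ot (2.13 and 2.53) and A830082K12Rik (2.44 and 2.10). Sox1ot overlaps Sox1 and A830082K12Rik overlaps Nr2f1, and since no source used here gives the strand setting of the counting, reads of such pairs may not be told apart. These genes were each found in 20% to 50% of members.

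Serotonergic genes summed far below the other GABAergic nuclei, where their UMIs lay in few nuclei. At least 2 UMIs of Tph2, Slc6a4 and Fev together were found in 81 of 2175 other GABAergic nuclei in HFD and 69 of 2563 in NFD. The highest of these nuclei held 198 and 132. Among members, 0 in HFD and 1 in NFD had at least 2. Tph2, the serotonin-synthesizing hydroxylase, had 1 UMI in HFD and 2 UMIs in NFD members, against 135 and 85.9 CPM in other GABAergic nuclei. Slc6a4, the serotonin transporter gene, had 2 UMIs in HFD and none in NFD members. Slc18a2, the vesicular monoamine transporter gene, was at 10.2 CPM in HFD members against 85.9, and at 5.99 CPM in NFD members against 57.2. Dopaminergic markers (Th, Slc6a3 and Ddc) summed to 23.4 CPM in HFD members against 92.9, and to 24.0 CPM in NFD members against 60.8. At least 2 of these UMIs were found in 8 of 90 HFD members and 157 of 2175 other GABAergic nuclei. In NFD it was 2 of 59 members and 106 of 2563. Calcr, the calcitonin receptor gene on which amylin receptors are built, had 7 UMIs in HFD and 1 in NFD members, with log2 ratios of -2.66 and -3.84. Hcrtr2, an orexin receptor gene, had 8 and 5 UMIs, with ratios of -2.77 and -2.12. Of 11 peptide and feeding hormone receptor genes, Calcr, Hcrtr2 and the oestrogen receptor gene Esr1 were lower and none higher, and the list medians of 0.02 in HFD and -0.08 in NFD were near 0.

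Pax8, a paired-box factor gene, had 11 UMIs in HFD and 1 in NFD members, with log2 ratios of -2.49 and -4.25. The ratios of Cdh23, a cadherin gene, were -2.32 and -4.30, those of Lhx1os, on the strand opposite Lhx1, -2.39 and -4.01, and those of Cfap299 -2.96 and -2.35. Sst, the somatostatin gene, was 1 of 4 measured interneuron and peptide markers and had log2 ratios of -1.23 and -2.60. Zfhx3, a homeobox factor, had ratios of -1.34 in HFD and -3.02 in NFD, and Pde1a, a calmodulin-dependent phosphodiesterase gene, -1.89 and -3.36. Among GABA and glycine receptor genes, the glycine receptor gene Glra2 was lower. Single genes were lower among calcium channel auxiliary subunits (Cacng3) and glutamate receptors (Grm8).

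**Figure D3:**
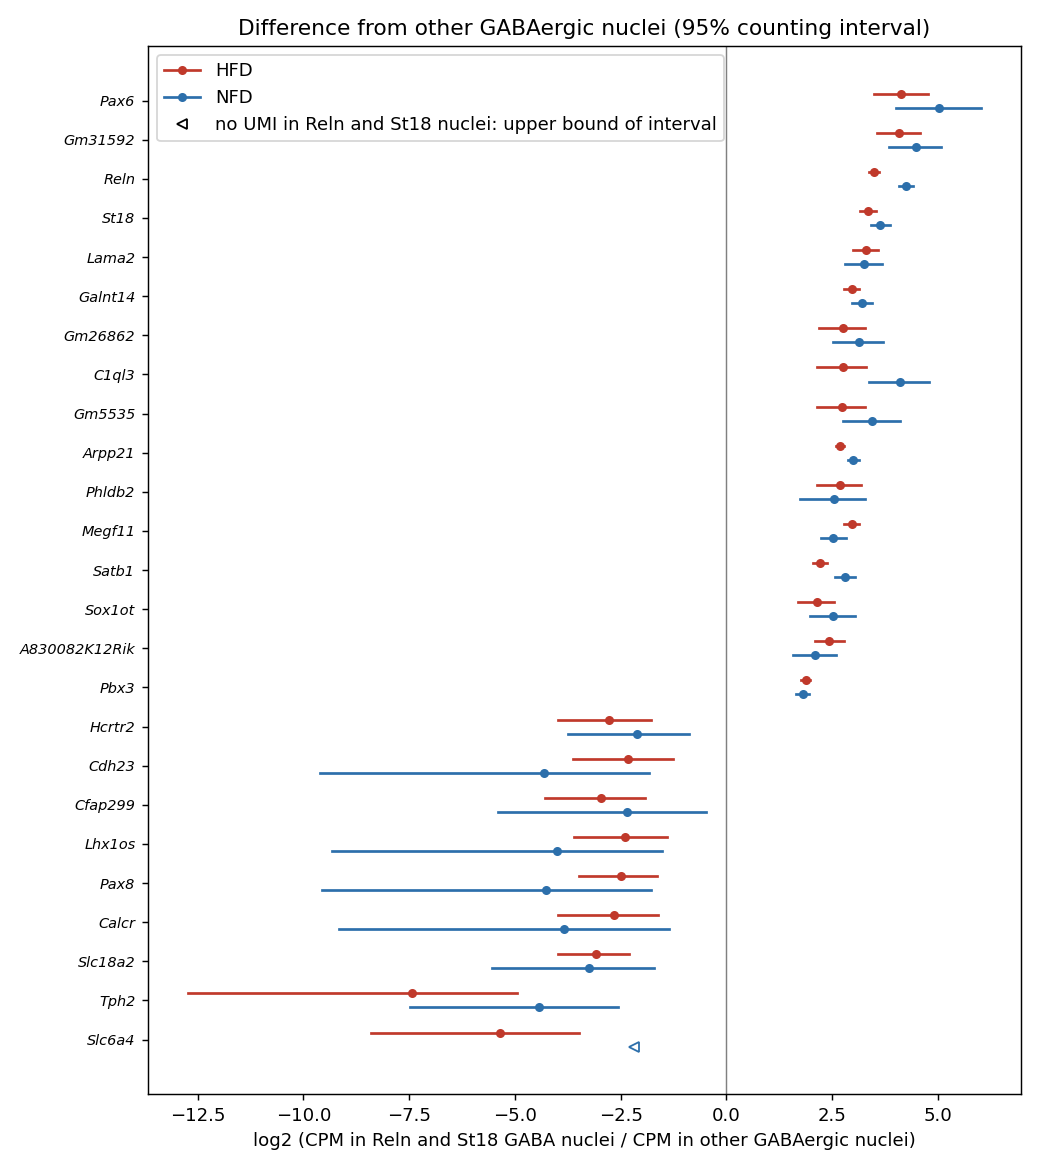
Log2 ratio of CPM in Reln and St18 GABA nuclei to CPM in other GABAergic nuclei of the same library, for the 15 highest genes, Pbx3 and the 9 lowest genes, with HFD above NFD in each pair and exact 95% counting intervals. An open triangle marks a gene with no UMI in the members and stands at the upper end of its interval. Pax6 stood at 4.13 in HFD and 5.02 in NFD, and Tph2 at -7.43 and -4.43.

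After thinning to 5000 UMIs the enrichment of the markers held in both libraries. Galnt14 was detected in 65.4% of HFD and 75.5% of NFD members, against 12.2% and 13.4% of other GABAergic nuclei. Pbx3 was detected in 82.7% and 95.9%, against 34.4% and 38.0%. Satb1 was detected in 66.7% and 79.6%, against 19.4% and 16.6%. Lama2 was detected in 27.2% and 40.8%, against 4.02% and 5.45%, and Megf11 in 64.2% and 55.1%, against 9.84% and 11.0%. The thinning left out 9 HFD and 10 NFD members of lower depth.

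A set of 14 HFD members had at least 2 UMIs of the granule markers, up to 25 in a single nucleus, and no NFD member did. In these 14 nuclei Reln was at 375 CPM, against 717 CPM in the other 76 HFD members, Galnt14 at 83.7 against 349 CPM, and Pbx3 at 199 against 859 CPM. Lhfp, which encodes a tetraspan membrane protein, was at 291 against 6.80 CPM, and the bicarbonate transporter gene Slc4a4 at 502 against 34.0 CPM. Their median depth was 15035 UMIs, against 11723.5 in the other 76. What these 14 nuclei are was not tested.

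Nuclei without Galnt14 also differed from the rest in HFD. The 24 HFD members with no Galnt14 UMI had Kcnip4 at 4224 CPM and the granule markers at 273 CPM, against 11591 and 39.7 CPM in the 66 with Galnt14. Cacna2d1 stood at 584 CPM (506 to 670) in those 24 and at 177 CPM (151 to 206) in the 66. Only 5 NFD members lacked Galnt14, and they had Kcnip4 at 7123 CPM and no UMI of Cacna2d1, which allows a level of up to 82.8 CPM. Across nuclei thinned to 5000 UMIs, Spearman's rho of Galnt14 with Kcnip4 was 0.62 in 81 HFD members and 0.13 in 49 NFD members, values that share the library and its depth and are given as a description.

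Markers of other cells were read over whole lists. Astrocyte markers, all 6 detected, summed to 153 CPM in HFD members, and in NFD members to 37.9 CPM with Aqp4, Gfap, Aldh1l1 and Gja1 at 0. The glutamate transporters had 24 UMIs in HFD and 2 in NFD members. Markers of Meis2 GABA neurons (Meis2, Tshz2 and Tfap2b) summed to 184 and 81.8 CPM, with Tfap2b at 0 in NFD. Microglial markers summed to 55.5 and 37.9 CPM in HFD and NFD, with C1qa and Tmem119 at 0 in both. Serotonergic markers had 4 and 2 UMIs. Oligodendrocyte markers summed to 43.8 and 59.9 CPM. Markers of cortical interneurons (Lhx6, Adarb2, Prox1 and Npas1) summed to 477 CPM (440 to 517) in HFD members with Lhx6 at 0, and to 268 CPM (224 to 317) in NFD members with Lhx6 and Npas1 at 0. Both sums were below those of other GABAergic nuclei, but the markers did not go together. Adarb2 held 490 of the 611 UMIs in HFD members, while Prox1, with 117, was past the fold higher in members than in other GABAergic nuclei. The astrocyte, cortical interneuron and Meis2 neuron sums were thus higher in HFD members, the astrocyte sum there being mostly Slc4a4. The intervals of the diets overlapped for glutamate transporters, microglia and oligodendrocytes. The part of these cells in the differences between the diets was not tested, beyond the sets of nuclei left out below.

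Genes with the largest spread between nuclei in both libraries, by variance over mean of thinned counts, were Malat1 (32.2 in HFD and 35.1 in NFD), mt-Rnr2 (22.9 and 27.1), Galntl6 (17.0 and 18.8), Ptprd (15.8 and 16.2), Pcdh9 (13.9 and 25.3), Opcml (14.7 and 12.6), Kcnip4 (22.8 and 12.1), Cntn5 (10.3 and 29.8), Nkain2 (19.0 and 9.82) and Prkg1 (8.39 and 8.18). Ptprd, Pcdh9, Opcml and Cntn5 encode proteins of cell adhesion. Il1rapl2, a synaptic adhesion gene, was concentrated further. It was found in 23 HFD and 17 NFD members, with up to 121 UMIs in an HFD nucleus and 44 in an NFD nucleus.

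Between the diets, 90 of 5347 genes (1.68%) were past 1.5-fold higher in HFD members, the counting interval lying wholly past a 25% excess, and 44 (0.823%) were past it lower. For the same genes in other GABAergic nuclei, which hold far more UMIs, 14 (0.262%) were higher and 6 (0.112%) lower. The median log2 ratio of HFD to NFD was 0.03 in members and 0.02 in other GABAergic nuclei. Without the 14 nuclei of 2 or more granule marker UMIs, 54 of 4827 genes (1.12%) were higher, 45 of them among the 90, and 29 (0.601%) were lower, 23 of them among the 44. A stricter set, of 62 HFD and 56 NFD members with no UMI of the granule markers, Meis2, Tfap2b or the glutamate transporters, gave 33 of 4085 genes (0.808%) higher, 20 of them among the 90, and 17 (0.416%) lower, 10 of them among the 44. With every nucleus thinned to 5000 UMIs, 38 genes were higher, 29 of them among the 90, and 4 were lower, all among the 44.

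Cacna2d1 (chr5:15934691-16374511, plus strand) encodes the alpha2delta-1 auxiliary subunit of voltage-gated calcium channels, which helps bring channels to the membrane, and is a gene that the study takes up. It had 368 UMIs in HFD members and 23 in NFD members, 288 CPM (259 to 318) against 45.9 CPM (29.1 to 68.9), a log2 ratio of 2.65 (2.04 to 3.32). In other GABAergic nuclei it had 371 CPM in HFD and 323 in NFD, a log2 ratio of 0.20 (0.15 to 0.25). The HFD members thus stood at -0.37 and the NFD members at -2.81 relative to the other GABAergic nuclei of their library on the log2 scale. A UMI was found in 31 of 90 HFD members (34.4%) and in 7 of 59 NFD members (11.9%), against 32.9% and 37.3% of other GABAergic nuclei. After thinning the shares were 28.4% (18.9 to 39.5) of 81 HFD members and 10.2% (3.40 to 22.2) of 49 NFD members, against 29.1% and 29.9% of other GABAergic nuclei. Oligodendrocytes, at median depths of 2098 and 2026 UMIs, had a Cacna2d1 UMI in 16.0% and 14.5%.

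Few nuclei carried most of that difference. The median was 0 UMIs per nucleus in both diets, the highest nucleus had 63 UMIs in HFD and 7 in NFD, and 9 of the 90 HFD members held 287 of the 368 UMIs (78.0%). These 9 were deep nuclei, with 14323 to 37208 UMIs each against a median of 12122.5 over the HFD members. Their Reln was 0.81 to 5.19 per 10000 UMIs, below the HFD median of 7.22. What these 9 nuclei are was not tested. Without the highest nucleus of each library the log2 ratio was 2.90, without the nuclei of 2 or more granule marker UMIs 2.47, and in the strict set 2.42 from 90 UMIs in HFD and 10 in NFD. Thinned to 5000 UMIs it was 1.99 from 79 and 12 UMIs, and with at least 5 Reln UMIs required it was 1.72 from 176 and 22. The HFD value stayed above the NFD value in each. The nuclei just outside the rule did not share the low NFD level. With 1 or 2 Reln UMIs, Cacna2d1 was at 503 CPM in HFD and 537 CPM in NFD, and without St18 at 803 and 393 CPM.

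Several genes with the largest ratios went with the granule markers or with single nuclei. Lhfp had 80 UMIs in HFD and 2 in NFD members, a log2 ratio of 3.97 (2.07 to 7.04), and 73 of the 80 lay in the 14 nuclei with granule markers. Meis2, a homeodomain factor gene, had 56 UMIs from 8 HFD nuclei and 3 from 1 NFD nucleus. Prlr, the prolactin receptor gene, had 57 and 3 UMIs, and its log2 ratio of 2.89 in all members became -0.01 in the strict set. Gpc5, a glypican gene chosen after its values were seen, was 0.71 higher in HFD over all members, from 776 and 186 UMIs, and 1.07 lower in the strict set (-1.07, interval -1.40 to -0.75), from 141 and 177.

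Sorcs1, Zfhx4, Sv2c and Gabrg1 were past the fold in the strict set as well. Sorcs1, which encodes a sorting receptor, had 295 CPM in HFD and 61.9 CPM in NFD members, a log2 ratio of 2.25 (1.73 to 2.83), and 1.31 in the strict set. Zfhx4, a homeobox factor gene, had 113 and 27.9 CPM, with a ratio of 2.01 that was 1.58 in the strict set. Sv2c, a synaptic vesicle protein gene, had 67.2 and 24.0 CPM, with ratios of 1.49 and 1.67. Gabrg1, a GABA-A receptor subunit gene, had 55.5 and 22.0 CPM, with ratios of 1.34 and 1.71. Over all members, the remaining genes among the 12 highest were Sel1l3 (63 and 3 UMIs, log2 ratio 3.04), Nwd2 (56 and 3, 2.87), Csgalnact1 (79 and 6, 2.37), Zeb2 (48 and 4, 2.23), Dcun1d3 (50 and 5, 1.97) and Vat1l (139 and 14, 1.96). Each rested on 14 or fewer UMIs in NFD members. These had too few UMIs in the strict set to be measured there, with Nwd2 at 0.84 from 9 UMIs in HFD and 3 in NFD, Vat1l at 1.06 from 35 and 10, Zeb2 at 2.06 from 14 and 2, Sel1l3 at 2.13 from 22 and 3, Csgalnact1 at 2.99 from 40 and 3 and Dcun1d3 at 2.34 from 34 and 4.

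The 12 genes lowest in HFD had few UMIs. All but Micu2 and Btbd8 lay just above the 50 UMIs needed to be measured, as with Cbln4 at 28 UMIs in HFD and 27 in NFD. Micu2, which encodes a regulator of the mitochondrial calcium uniporter, had 70 UMIs in HFD and 69 in NFD members, 54.7 and 138 CPM, a log2 ratio of -1.33 (-1.83 to -0.83), and -1.30 in the strict set. Cbln4 had 21.9 CPM in HFD and 53.9 CPM in NFD members, a ratio of -1.30, and -0.81 (-1.72 to 0.10) in the strict set. Nprl3, a subunit of the GATOR1 complex that restrains mTORC1, had 23.4 and 57.9 CPM, and Atp6v1e1, a subunit of the vesicular proton pump, 21.9 and 49.9 CPM. In the strict set Nprl3 stood at -1.41 from 17 UMIs in HFD and 27 in NFD, and Atp6v1e1 at -0.75 (-1.74 to 0.25). Of the 12 genes only Micu2 was past the fold there. Btbd8 stood at -0.86 (-1.53 to -0.18), and the others had too few UMIs to be measured in that set. The others among the 12 lowest were Tmem169 (-1.41), Ddb1 (-1.41), Btbd8 (-1.38), Lyrm1 (-1.35), Nup188 (-1.35), Hhat (-1.35), Ccm2 (-1.30) and Ccdc171 (-1.20). Lyrm1 overlaps Dcun1d3, which had the opposite ratio, so reads of the pair may not be told apart. In other GABAergic nuclei the ratios of these 12 genes lay between -0.40 (Nprl3 and Cbln4) and 0.22 (Ccm2).

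**Figure D4:**
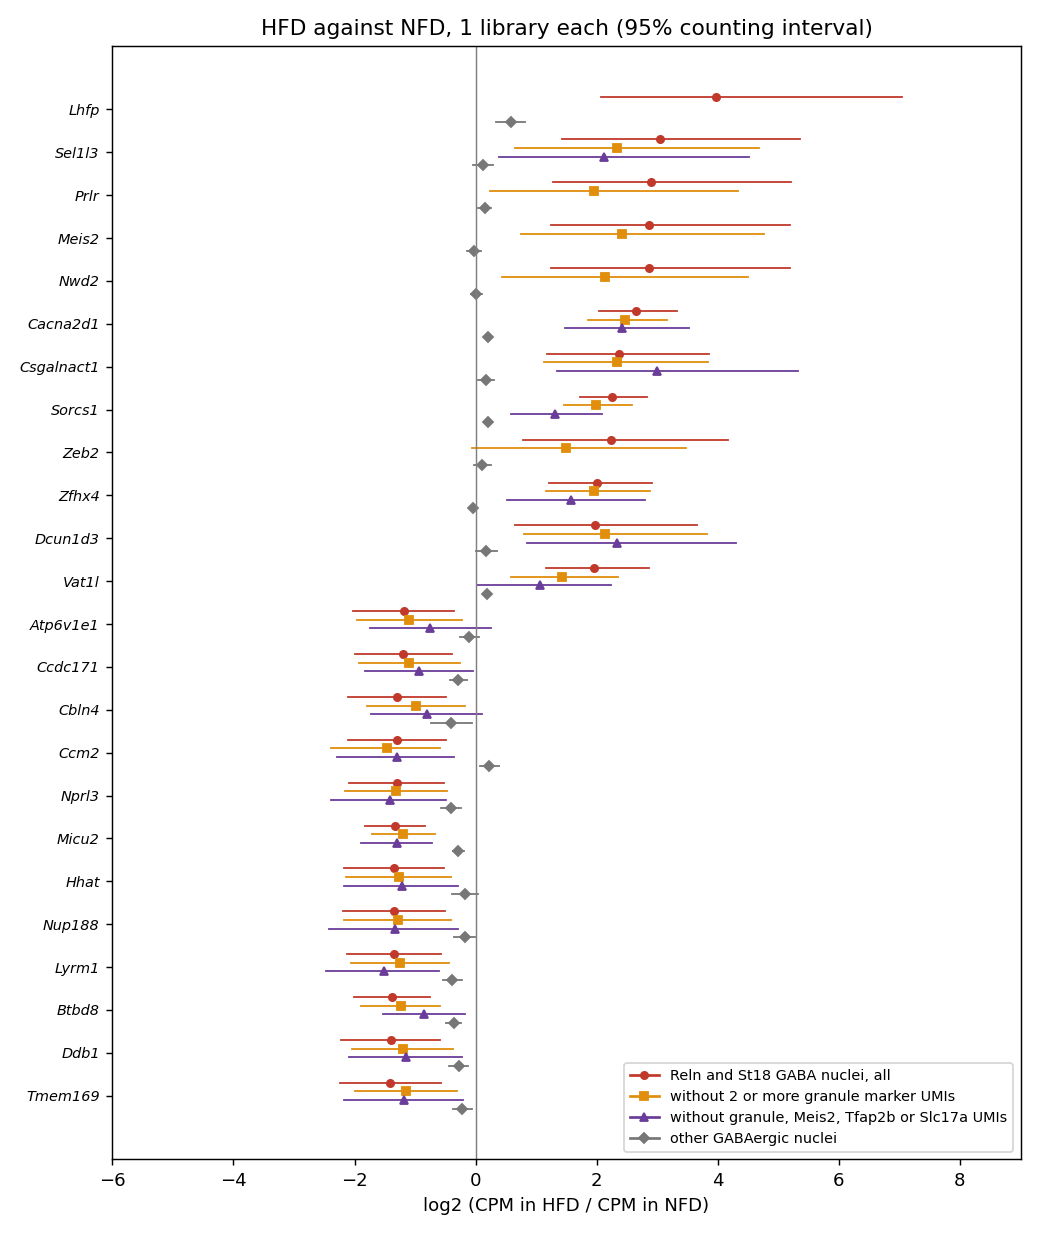
Log2 ratio of CPM in HFD to CPM in NFD for the 12 highest and 12 lowest genes in Reln and St18 GABA nuclei, with exact 95% counting intervals. Red circles are all members, orange squares leave out nuclei with 2 or more granule marker UMIs, purple triangles are the strict set and grey diamonds are other GABAergic nuclei, with points under 20 UMIs in a smaller set not drawn. Cacna2d1 stood at 2.65, 2.47 and 2.42 in the members and at 0.20 in other GABAergic nuclei.

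Genes of inhibitory transmission differed in part. Of the 7 measured genes of GABA synthesis, release and uptake (median log2 ratio -0.07), Slc32a1 was lower, with 51 UMIs and 39.8 CPM in HFD and 40 UMIs and 79.9 CPM in NFD members, a log2 ratio of -1.0 (-1.63 to -0.37). It was also lower in other GABAergic nuclei (-0.67). In the strict set it stood at -0.94 (-1.64 to -0.25), its interval no longer far enough from 0 to be counted. After thinning Slc32a1 was found in 11.1% (5.21 to 20.0) of HFD and 38.8% (25.2 to 53.8) of NFD members, against 16.9% and 22.9% of other GABAergic nuclei. Gad1 and Gad2 had ratios of -0.07 and -0.22 over all members, and 0.09 and 0.11 in the strict set. Slc32a1, Gad1 and Gad2 are genes of the rule, which set its UMI threshold at the depth of each library. Their values, thinned shares included, are therefore given as a description. Of 16 GABA and glycine receptor genes, 13 lay above 0 with a median of 0.39, beside 0.06 in other GABAergic nuclei. Of all 5347 genes, 1.68% were past the fold higher and the median was 0.03. Here Gabrg1 (1.34), Glra3 (1.80), Gabrb2 (0.68) and Gabbr1 (0.97) were past the fold. Only Gabrg1 was so in the strict set, with Glra3 at 0.69 (-0.41 to 1.90), Gabrb2 at 0.14 and Gabbr1 at 0.82, and the median over the 13 genes still measured was 0.22. The abundant Gabrb1 and Gabrg3 stood at 0.21 and -0.31.

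Reelin itself was not past the fold. Reln had a log2 ratio of -0.47 (-0.63 to -0.30), St18 of -0.55 and Arpp21 of -0.47, given as a description because the rule set its UMI thresholds on these genes at the depth of each library. Of the 13 measured genes of reelin signalling (median 0.00), 7 lay above 0 and only Dab1 was past the fold, with 954 CPM in HFD and 567 CPM in NFD members, a ratio of 0.75 (0.56 to 0.94), and 0.53 in the strict set, no longer past the fold. The Sox and Myt factors had a median of -0.16 over 5 genes with none past the fold. Of 30 lineage transcription factors (median 0.16), Zeb2, Meis2, Zfhx4, Zfhx3 (1.55) and Npas3 (0.82) were higher and none lower. Among all 5347 genes the shares were 1.68% and 0.823%. In the strict set Zfhx4 was past the fold, Zfhx3 stood at -0.0026 and Npas3 at 0.23, Zeb2 had 14 UMIs in HFD and 2 in NFD members, and Meis2 was 0 because the set requires it. Nfia was higher and Foxp1 lower in that set, genes chosen after their values were seen. Of the 4 interneuron and peptide markers (median 0.40), Penk, the enkephalin precursor gene, was lower, with 25.0 CPM in HFD and 55.9 CPM in NFD members, a ratio of -1.16. It stood at -0.50 (-1.39 to 0.41) in the strict set.

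Among ion channels few genes were past the fold, beside 1.68% of all 5347 genes higher and 0.823% lower. Cacna2d1 was the only gene of 10 measured calcium channel auxiliary subunits past the fold, and 8 of the 10 lay above 0 with a median of 0.26, beside 0.09 in other GABAergic nuclei. Its paralogue Cacna2d3 had 602 CPM in HFD and 621 CPM in NFD members, a ratio of -0.05. Over the 7 pore subunits of calcium channels the median was -0.11, with none past the fold, and Cacna1a and Cacna1c stood at 0.22 and 0.07. Of 31 potassium channel genes (median 0.11) Kcnh5 was higher (1.20, and 0.95 in the strict set, no longer past the fold), and the abundant Kcnip4 and Kcnd2 stood at -0.04 and 0.49. None of the 11 sodium, HCN and leak channel genes (median -0.03) was past the fold.

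Of all 5347 genes, 1.68% were higher and 0.823% lower in HFD members. At the synapse, 5 of 57 adhesion genes were higher (Il1rapl2 at 0.90, Unc5c at 0.97, Cntn6 at 1.01, Lrrtm3 at 0.63 and Tenm3 at 0.77) and 2 were lower (Cbln4 and Cntn5), with a list median of 0.06. Only Il1rapl2 was past the fold in the strict set, at 0.83, while Unc5c stood at 0.33, Cntn6 at 0.61, Lrrtm3 at 0.28, Tenm3 at 0.23, Cbln4 at -0.81 and Cntn5 at -0.39. With at least 5 Reln UMIs required, Il1rapl2 stood at -0.059. Cntn5, a contactin gene, had 2818 CPM in HFD and 4757 CPM in NFD members, a ratio of -0.76 (-0.83 to -0.68), beside -0.14 in other GABAergic nuclei. The abundant Nrxn3 stood at -0.01. Of 29 genes of synaptic vesicle release (median 0.09) Sv2c was higher, and Syt1 and Rims2 stood at -0.00 and 0.01. Over 22 glutamate receptor genes the median was -0.00, and Grm7 stood at -0.24. Of 25 O-glycan and heparan sulfate enzymes (median 0.01) Galnt13 (0.73) and Ndst3 (1.43, but -0.83 in the strict set) were higher, and of 24 cAMP and PP1 regulators (median 0.16) Pde1a (1.37). None of these 3 was past the fold in the strict set, with Galnt13 at 0.38 and Pde1a at 0.90. Receptors for modulators (10 genes, median 0.03) and for peptides and feeding hormones (7 genes, median 0.13) had none past the fold.

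Mitochondrially encoded RNAs lay below 0 as a list, while all 5347 genes had a median of 0.03 and 0.823% past the fold lower. Of 9 measured, 8 lay below 0 with a median of -0.69, and 6 were past the fold, beside a median of -0.15 in other GABAergic nuclei. They were mt-Rnr1 (-0.77), mt-Rnr2 (-0.96), mt-Nd1 (-0.92), mt-Nd2 (-0.68), mt-Nd5 (-0.89) and mt-Cytb (-0.69). In the strict set 8 of 8 lay below 0 with a median of -0.55, and only mt-Nd1 (-0.86) and mt-Cytb (-0.61) were past the fold, while mt-Rnr2 stood at -0.54 and mt-Rnr1 at -0.38. Over all members, mt-Rnr2 had 536 CPM in HFD and 1042 CPM in NFD members. These RNAs are made in mitochondria, outside the nucleus, and the median mitochondrial share of a member was 0.195% in HFD and 0.320% in NFD. The nuclear RNA Malat1 was lower in HFD members (-0.51) and in other GABAergic nuclei (-0.57), and none of 12 nuclear long noncoding RNAs (median -0.04) was past the fold.

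Heat shock chaperone genes leaned the other way, the median over all 5347 genes being 0.03. Of 18 measured, 17 lay above 0 in HFD members with a median of 0.49, beside 0.41 in other GABAergic nuclei, and none was past the fold with its interval. Hspa4l had 169 CPM in HFD and 120 CPM in NFD members, and Chordc1 102 and 61.9 CPM. Of 14 genes of cholesterol and fatty acid synthesis, 10 lay below 0 with a median of -0.31, beside -0.15 in other GABAergic nuclei. The abundant Acaca, which encodes an acetyl-CoA carboxylase, stood at -0.10. Genes of endoplasmic reticulum stress (9 genes, median -0.04), the circadian clock (10 genes, median 0.16) and insulin and IGF signalling (18 genes, median 0.03) had none past the fold. Of the immediate early genes only Homer1 was measured, at 0.69 (0.05 to 1.38).

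**Figure D5:**
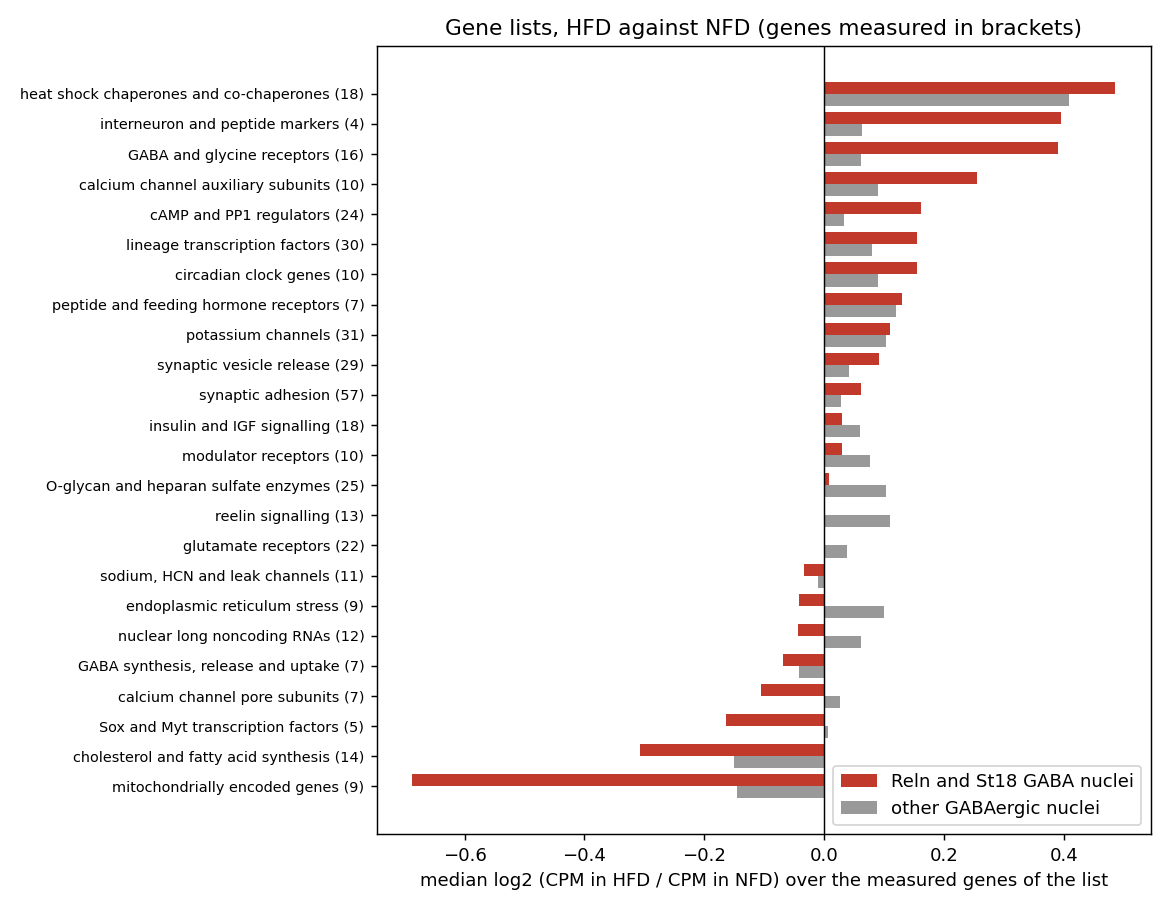
Median log2 ratio of CPM in HFD to CPM in NFD over the measured genes of each list with more than 1 measured gene, the number of genes standing in parentheses. Red bars are Reln and St18 GABA nuclei and grey bars are other GABAergic nuclei. The mitochondrial list stood at -0.69 and -0.15, the heat shock list at 0.49 and 0.41, and the GABA and glycine receptor list at 0.39 and 0.06.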

How the data were processed

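The processed files are matrices of UMI counts, whole numbers for every gene in every nucleus, deposited 1 per library. The study's methods and GEO's notes name bcl2fastq 5.01 for demultiplexing, GRCm38 as the reference and Seurat 3.1.1, and the authors counted with Cell Ranger, whose version in the header is 4.0.0. How intronic reads and strand were handled is not stated in those sources. Capture was by 10x 3' chemistry. The study states 6813 DIO and 7625 control cells, the numbers of barcodes in the matrices, of which 6322 and 7500 passed the filter. No doublet caller was run. All 55450 gene identifiers matched GENCODE M21.

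UMIs were summed per library and class with Python 3.11.15, numpy 2.4.6, scipy 1.17.1, pandas 2.3.3 and matplotlib 3.10.9. CPM carry exact Poisson intervals, log2 ratios exact conditional binomial intervals and shares Clopper-Pearson intervals. Genes were measured with at least 50 UMIs over the members of both libraries, or 50 expected there from the other GABAergic nuclei in that comparison. A count of 0 was read as up to 3. The interval step was tested on simulated data. Members, gene lists and tests were chosen with earlier results of these data known. The text names the markers, the 15 highest and 10 lowest genes against other GABAergic nuclei, the 12 highest and lowest between diets, listed genes past the fold, up to 4 further genes of a list, the 10 most variable genes and Cacna2d1. Some results under this rule were left out.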

Additional observations from a re-analysis of the deposited data

How the results depend on the processing

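No paired analysis was possible because each diet has 1 library. The number of genes higher in HFD members was 38 after thinning to 5000 UMIs, 59 in nuclei of 5000 to 25000 UMIs, 47 without nuclei above the 95th percentile of UMIs, 59 without nuclei with a glutamate transporter UMI, 58 with at least 5 Reln UMIs, 145 with a minimum of 20 UMIs per gene and 158 with a minimum of 1. The number lower in HFD members was 4, 28, 25, 29, 29, 70 and 119 in the same order, and 20 with a minimum of 100 UMIs. The sets chosen after seeing the data gave 54 higher and 29 lower without nuclei of 2 or more granule marker UMIs, and 33 and 17 in the strict set. Against other GABAergic nuclei, 34 genes were higher after thinning, 101 with a minimum of 1 UMI, and 107 were lower in the strict set. Only the members were filtered in the strict set, while all 2175 HFD and 2563 NFD other GABAergic nuclei were kept. Part of that count was thus fixed by the selection, as for Meis2, which the set requires at 0. Shares of members moved to 1.98% in HFD with the thinned rule, to 3.48% in NFD for nuclei of at least 5000 UMIs (added after seeing the data) and to 2.83% in HFD and 1.53% in NFD with at least 5 Reln UMIs. Between diets Il1rapl2 turned to -0.059 with at least 5 Reln UMIs, and in the strict set Ndst3 turned to -0.83, Prlr to -0.0098 and Zfhx3 to -0.0026. Ratios of named genes and medians of gene lists were compared together, and 1576 of these values were rated as the same and 180 as moved. A further 4, ratios of genes past the fold, turned in sign. For a gene, the same meant that the value lay within the counting interval of its main ratio. The cause of these changes was not tested. Fewer nuclei and UMIs enter each smaller set, and 59 NFD members with 500934 UMIs set the precision of every ratio between the diets.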
